A study of Mus musculus with 7 samples.

Results

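The genes described here are the class I olfactory receptors of the mouse chromosome 7 cluster, the receptor family that land vertebrates share with fish. They were taken as the records of the deposited gene count table whose symbol is Olfr followed by digits and whose position lies on chromosome 7 between 102.0 and 105.5 Mb (GRCm38). This gave 128 records of 50600 genes, or 11.5% of the 1110 receptor genes with such a symbol. The records carry 127 symbols, because Olfr663 is listed under 2 identifiers at 1 position. Whole olfactory epithelium, the sensory lining of the nasal cavity, was dissected from mice at postnatal day 7 and sequenced after poly(A) capture in 7 libraries. The groups were 1 wild-type library (Amigo1+/+, WT), 3 libraries of a knockout (Amigo1-/-, KO) and 3 of Amigo1neo/neo (neo), in which a neomycin resistance cassette takes the place of the coding region of Amigo1, a cell adhesion gene on another chromosome. The labels name no strain, and the tissue is a mixture in which neurons are 1 of many cell types. Gene counts totalled 14879415 to 21343058 per library, of which class I members held 6060 to 11516. Amigo1 had 744 counts in WT and 0 to 16 in the KO and neo libraries.

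An olfactory receptor is a G protein-coupled receptor that is set in the cilia of a sensory neuron and binds odorants. Each mature neuron transcribes a single receptor allele, so in bulk tissue the RNA level of a receptor reflects both how many neurons chose it and how much RNA each of them holds, and these cannot be told apart here. Class I receptors are known for binding acidic and other water-soluble odorants and for use by neurons of the dorsal part of the epithelium. The transcription factor Bcl11b is known to steer neurons towards class II receptors, and a long-range enhancer called the J element is known to act across much of the class I cluster.

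Receptor promoters are known for homeodomain sites, bound by factors such as Lhx2 and Emx2, and for sites of the O/E (Ebf) factors. The 250 bases before the RefSeq start are shown for 5 members named below whose RefSeq and GENCODE starts lie within 100 bases of each other. They come from the RefSeq promoter table (build GRCm38.p6), read 5′ to 3′ on the strand of the gene, and capitals mark TAATTA or TAATTG on either strand.
Olfr544 (chr7:102488308-102488557, minus strand): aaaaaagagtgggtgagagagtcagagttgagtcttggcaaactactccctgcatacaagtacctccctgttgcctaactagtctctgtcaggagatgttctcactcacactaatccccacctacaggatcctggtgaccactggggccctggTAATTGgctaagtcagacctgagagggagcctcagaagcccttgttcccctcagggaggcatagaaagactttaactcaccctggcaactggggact
Olfr692 (chr7:105368078-105368327, plus strand): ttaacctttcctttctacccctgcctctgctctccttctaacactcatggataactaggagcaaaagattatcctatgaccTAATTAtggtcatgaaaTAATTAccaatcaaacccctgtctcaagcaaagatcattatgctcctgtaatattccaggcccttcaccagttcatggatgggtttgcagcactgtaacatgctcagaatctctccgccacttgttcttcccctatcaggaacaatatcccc
Olfr566 (chr7:102858766-102859015, minus strand): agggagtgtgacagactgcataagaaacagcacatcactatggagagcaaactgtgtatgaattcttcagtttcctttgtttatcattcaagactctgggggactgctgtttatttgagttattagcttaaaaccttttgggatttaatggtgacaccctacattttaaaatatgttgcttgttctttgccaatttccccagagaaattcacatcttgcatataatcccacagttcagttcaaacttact
Olfr67 (chr7:103791831-103792080, minus strand): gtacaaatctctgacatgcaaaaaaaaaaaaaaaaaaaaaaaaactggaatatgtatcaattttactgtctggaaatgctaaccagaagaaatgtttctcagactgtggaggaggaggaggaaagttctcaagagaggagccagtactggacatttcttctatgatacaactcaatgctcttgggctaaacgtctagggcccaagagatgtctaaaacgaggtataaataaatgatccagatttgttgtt
Olfr64 (chr7:103894472-103894721, minus strand): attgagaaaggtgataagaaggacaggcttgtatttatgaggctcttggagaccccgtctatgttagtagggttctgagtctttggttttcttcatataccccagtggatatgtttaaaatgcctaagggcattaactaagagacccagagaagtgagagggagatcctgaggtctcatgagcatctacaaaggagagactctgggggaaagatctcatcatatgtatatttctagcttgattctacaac

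Olfr544 held 1 such motif, starting 97 bases before the start (position -97), and Olfr692 held 2, at -169 and -152. The windows of Olfr566, Olfr67 and Olfr64 held none of these letters. Among the 109 members with a RefSeq window of 300 bases (250 before and 50 after the start), 33.0% held TAATTA or TAATTG, against 38.0% of 831 other receptor genes and 12.5% of all 27025 windows of the table, where members and other receptors are included. The core CCCNNGGG of the O/E site, searched on both strands, was in 2.75% of member windows, 3.13% of windows of other receptors and 13.4% of all windows. These sets differ in base composition, with a median of 37.3% G and C in members, 35% in other receptors and 52.7% in all windows. The motif shares were not adjusted for it, so they are no measure of enrichment or depletion. Of the 109 members, 16 had a RefSeq start within 100 bases of the GENCODE start, and 9 of these 16 windows held a homeodomain motif (56.3%), against 56 of 124 (45.2%) for other receptors chosen in the same way. The order of members and other receptors was thus the reverse of that over all their windows. For the other members the RefSeq window stands elsewhere in the gene model, so the shares describe those windows and not measured promoters.

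The grouping was compared with coding sequence, which the selection by symbol and position did not use. No sequence that defines class I was used, so the class label itself was not tested. Of the 125 members with a match to another receptor, 123 had another member as their nearest relative, and of 971 other receptor genes 969 had their nearest relative outside the cluster. The exceptions were Olfr657, nearest to Olfr504 (95.5% identical), and Olfr658, nearest to Olfr503 (97.1%). Olfr503 and Olfr504 lie on chromosome 7 at 108544527 and 108564836, outside the window, and held 2 and 0 counts over the 7 libraries together. The markers of the tissue were present. All 18 mature olfactory neuron genes on a fixed list, Omp and Cnga2 among them, were detected, with a sum of 4898 CPM (counts scaled to the size of the library) in WT, 4339 to 4805 in KO and 5005 to 5547 in neo.

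Members ran from Olfr543 (from 102476579) to Olfr692 (to 105369355), a span of 2893 kb. The next receptor genes were Olfr521, 2707 kb before the first member, and Olfr693, 1306 kb after the last, so the window cut through no run of receptor genes. The window held 255 genes in all, 30 of them receptor pseudogenes with a -ps symbol. Inside the cluster lie 7 beta-globin (Hbb) genes, which encode a chain of hemoglobin and are read in red blood cells. They stand between Olfr67 and Olfr66, with 73 members on the lower-coordinate side and 55 on the upper side. In GENCODE vM21, 64 members are on the plus strand and 63 on the minus strand, and 59.2% of 125 neighbouring pairs share a strand. A median member spans 6.08 kb and has 2936 exon bases in 2 separate exons and 2 transcripts. Sequence relatives were often near each other. The nearest relative was the adjacent member for 48 of 122 members and within 5 places for 86, and 111 of 122 had it on their own side of the globin genes.

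Transcripts of nearly every member were detected at low levels. WT had counts for 122 of the 128 records, KO libraries for 120 to 123 and neo libraries for 119 to 121. Mean counts per member reached 296, 24 members averaged at least 100 counts, and 18 averaged under 10. Levels between genes are compared in TPM (a unit per length of transcript, summing to 1 fixed total per library). The median member stood at 1.57 TPM, the mean over the 7 libraries, with 0.970 and 2.56 at the quartiles, and the median of the 982 other receptor genes was 1.52. At least 1 TPM was reached by 94 members (73.4%) and by 670 other receptors (68.2%). The highest member was 5.37 times the median member, where the highest of the other receptors was 15.6 times theirs (sets of unequal size). The 33 highest members made up 50% of the summed class I TPM, and the 10 highest held 22.2% ± 0.984 (SD, n = 7).

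**Figure D1:**
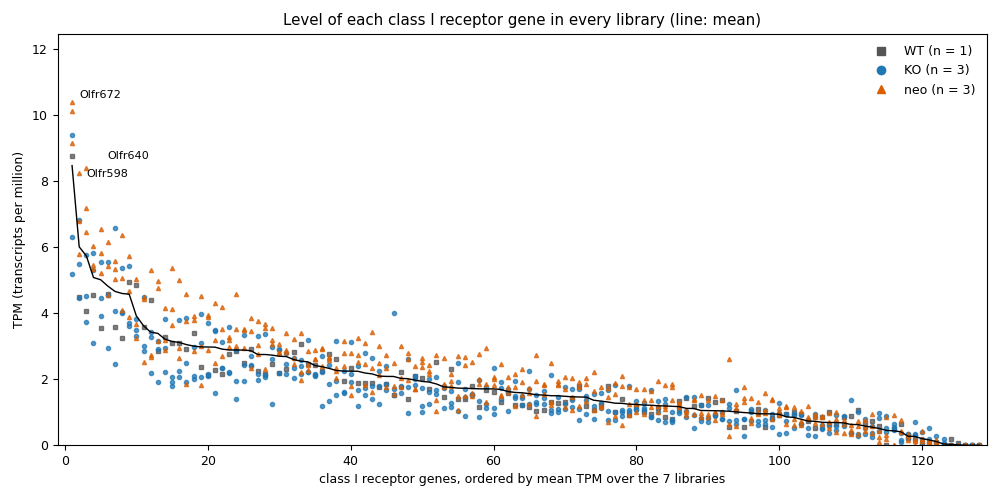
Level of each of the 128 class I receptor records (x axis, ordered by mean TPM) in every library (y axis, TPM), with WT as grey squares, KO as blue circles, neo as orange triangles and the mean of the 7 libraries as a line. Olfr672 stands first at a mean of 8.46 TPM, most members lie between 0.5 and 3 TPM, and the points of neighbours in the order overlap throughout.

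Olfr672 led the cluster. It stood at 8.74 TPM in WT, at 9.37, 5.18 and 6.29 in the KO libraries and at 10.1, 10.4 and 9.13 in the neo libraries, given here and throughout in the order of their replicate numbers. It was first in all 7 libraries, although its range over libraries overlapped that of Olfr598, the second. Its coding sequence is 67.0% identical to that of its nearest relative, Olfr670, which had a mean of 1.01 TPM.

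Olfr598 had 4.49 TPM in WT, 6.80, 4.45 and 5.48 in KO and 8.23, 6.78 and 5.77 in neo. Olfr640 had 4.07 TPM in WT, 5.76, 3.72 and 4.51 in KO and 8.40, 6.44 and 7.19 in neo. Both were thus highest in neo replicate 1, and for Olfr640 no KO library reached the lowest neo library. The remaining members of the 10 highest were Olfr566 (5.07 TPM), Olfr622 (5.01), Olfr689 (4.81), Olfr578 (4.65), Olfr669 (4.59), Olfr665 (4.57) and Olfr653 (3.91). By reads rather than by length, Olfr689 came first, with 332 counts in WT, 321, 224 and 227 in KO and 438, 281 and 248 in neo. All 127 pairs of neighbours in the TPM order had overlapping ranges over the 7 libraries. Within a library, the higher of the pair was above the lower in all 7 libraries for 2 pairs, Olfr672 above Olfr598 and Olfr665 above Olfr653, and for the other neighbours the order changed or tied in at least 1 library. The order as a whole was stable, with a Spearman rho of 0.865 to 0.928 between pairs of libraries over the 128 records, which share gene lengths and annotation. Counts per kb of annotated exon gave a rho of 0.946 with TPM, and 9 of the 10 highest by TPM were among the 10 highest by that measure.

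At the low end stood members whose gene model in GENCODE has coding exons and nothing more. These 11 members, among them Olfr547, Olfr583 and Olfr688, had a median of 0.109 TPM and a highest value of 0.629, against a median of 1.70 for the 117 others. The same split was seen among the other receptor genes, with 0.293 TPM for 58 with coding exons alone and 1.61 for 893 with more. Whether the missing transcribed ends account for the low values was not tested. No counts were found in any library for Olfr564, Olfr643 and both records of Olfr663. For Olfr564 this allows up to 3 counts, or 0.141 CPM in the deepest and 0.202 CPM in the shallowest library. No such limit is given for Olfr643, which shares exons with other genes, or for the Olfr663 records, which share 1 position. Reads that fit several genes may be missing from their counts. Olfr643 illustrates a limit of annotation. Its 138.6 kb model shares exons on the same strand with Olfr639 and Olfr640, its gene counts were 0, and its estimated level was still 0.989 TPM on average. The other shared exons on 1 strand were between Olfr78 and Olfr560 and between Olfr632 and Gm45655, so values of these members are uncertain.

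Near-identical coding sequence is a second limit, because reads that fit several places are not in the gene counts. The nearest relative was at least 90% identical for 33 members. The closest pair was Olfr596 and Olfr603, with 5 differences in 936 coding bases (99.5% identity). Bases 636 to 695 of both coding sequences, from GENCODE vM21 transcripts, are shown because they hold 2 of the 5 differences (capitals) and show how little separates the reads of the pair.
Olfr596: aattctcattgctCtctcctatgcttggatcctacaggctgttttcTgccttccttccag
Olfr603: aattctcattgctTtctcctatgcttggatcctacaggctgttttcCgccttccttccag

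Olfr596 had 43 counts in WT, 53, 38 and 27 in KO and 58, 24 and 40 in neo. Olfr603 had 3 in WT, 3, 2 and 3 in KO and 3, 0 and 1 in neo. Over the 15 pairs at least 90% identical in which both members had a level above 0, the higher member stood a median of 2.56 times above the lower in TPM. This is a description over pairs that can share reads.

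Several members are known for their ligands or for expression outside the nose. Olfr78, a receptor for short-chain fatty acids that is also known from the kidney and the carotid body, had 1.75 TPM in WT, 2.25, 1.78 and 1.25 in KO and 2.99, 2.13 and 2.49 in neo. Olfr558, also a receptor for short-chain fatty acids, had 1.32 TPM in WT, 1.74, 1.90 and 1.39 in KO and 2.46, 1.52 and 1.49 in neo. Both sat near the middle of the cluster's range, at places 44 and 61 of 128.

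Olfr544, known as a receptor for azelaic acid, had 2.61 TPM in WT, 3.14, 1.93 and 1.53 in KO and 2.24, 2.04 and 2.33 in neo. Its neighbour Olfr545, 89.0% identical to it, stood lower, at 0.510 to 1.17 TPM over the 7 libraries, and Olfr543, the outermost member on the lower side, at a mean of 0.936 TPM. At the other end of the cluster, Olfr690, Olfr691 and Olfr692 had means of 2.88, 1.91 and 1.36 TPM. Olfr692, which is also known from vomeronasal neurons, had 12 to 38 counts per library. The fixed list for those neurons holds 5 genes, and their levels were divided. Trpc2, a channel gene of those neurons, had 0 counts in all 7 libraries, and Vmn2r1, one of their receptors, 0 to 3.86 CPM. Vmn1r51 was also low, at 0.690 CPM in WT and means of 0.713 in KO and 0.528 in neo. Gnao1 and Gnai2 stood far higher, at 244 to 298 and 152 to 179 CPM over the 7 libraries. Whether vomeronasal neurons gave part of the Olfr692 counts was not tested.

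The rank correlation of level with position was weak, and it was described and not tested. The median was 1.52 TPM for the 73 members on the lower side of the globin genes and 1.70 for the 55 on the upper side, and of the 10 highest members 6 were on the upper side. Gaps of over 100 kb between neighbours divide the cluster into 3 blocks. These are Olfr543 to Olfr649 (91 members, median 1.499 TPM), Olfr651 to Olfr664 (13 members, 1.70 TPM) and Olfr665 to Olfr692 (24 members, 1.95 TPM). Across the 128 records the Spearman rho of mean TPM with position was 0.13, and that between the levels of adjacent members with counts was -0.03 over 123 pairs. By strand, the 64 plus-strand members had a median of 1.56 TPM and the 63 minus-strand members 1.70.

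**Figure D2:**
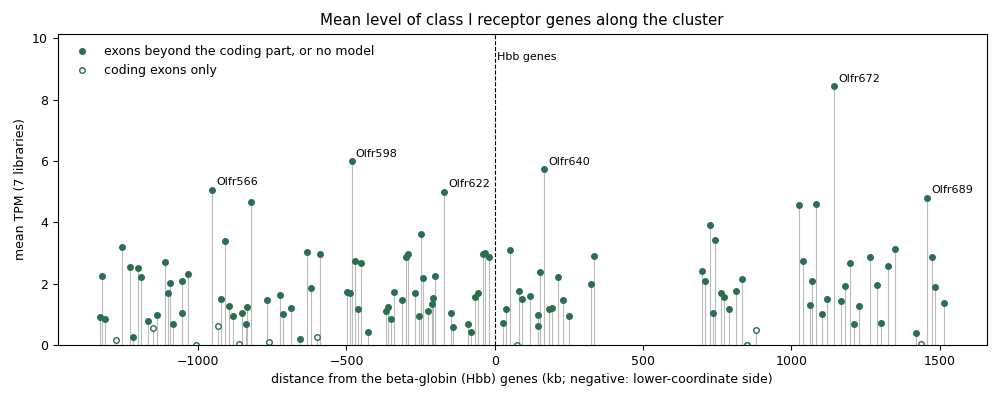
Mean TPM over the 7 libraries (y axis) of each member against its distance in kb from the Hbb genes (x axis), with open circles for members modelled by coding exons alone. High members such as Olfr566, Olfr598, Olfr640, Olfr672 and Olfr689 are spread over the cluster, and open circles lie at the bottom.

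The comparison of neo with KO, which is also that of the authors' deposited table, sets the cassette allele against the knockout. Summed over members, class I transcripts took 0.0392% of gene counts in WT (95% Wilson interval 0.0383 to 0.0400, which covers counting error alone). The KO libraries had shares of 0.0490, 0.0326 and 0.0330%, and the neo libraries 0.0547, 0.0439 and 0.0422%. KO replicate 1 thus stood among the neo libraries and the groups overlapped. The group means were 0.0382% ± 0.00937 for KO and 0.0469% ± 0.00676 for neo (± SD of 3 libraries), a ratio of 1.23 with p = 0.3 by a two-sided exact permutation test, whose smallest p in this design is 0.1. When each library was left out in turn, the ratio ran from 1.13 to 1.43. The highest was without KO replicate 1 (exact permutation p = 0.1, the smallest possible). That p followed from leaving out the KO library that overlapped neo, so it adds no support.

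No difference from the other receptors was detected. Class I took 10.5% of all receptor counts in WT, 14.0, 9.54 and 10.7% in KO and 11.9, 13.0 and 11.3% in neo (exact permutation p = 0.7, n = 3 each). Set against the counts of the mature neuron markers, class I counts came to 7.85% in WT, 8.63% ± 1.74 for KO and 8.87% ± 0.774 for neo (± SD, exact permutation p = 0.8, n = 3). The direction of both ratios turned when 1 library was left out, to 0.981 for the share of receptor counts without KO replicate 2, and to 0.960, 0.983 and 0.976 for the ratio to markers without KO replicate 2, KO replicate 3 and neo replicate 1.

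Several marker lists differed in summed level between KO and neo. The dorsal zone list holds Nqo1 and Acsm4, enzymes of the dorsal epithelium, and 5 Taar genes, which encode trace amine receptors of dorsal neurons. Their summed level was 322 CPM in WT, 370, 256 and 294 in KO and 390, 472 and 406 in neo, so KO and neo did not overlap and KO replicate 1 was the highest of its group. Nqo1 and Acsm4 made up most of this sum, at 103 and 211 CPM in WT, where the highest Taar gene, Taar6, had 3.96. All 7 genes had a positive fold change (median log2 0.48), 3 of 7 had an unadjusted p under 0.05 in the direction of neo (against 49.6 and 4.59% of all genes), and none passed adjustment (Nqo1 0.44, adjusted p = 0.498; Acsm4 0.48, adjusted p = 0.487; edgeR). Of the 18 mature neuron genes, 17 had a positive fold change (median 0.17) and 4 an unadjusted p under 0.05. The 5 precursor genes had 396 to 465 summed CPM in neo and 318 to 377 in KO, with 4 of 5 positive and 2 of 5 (Mki67 and Top2a, genes of dividing cells) at an unadjusted p under 0.05. All 5 sustentacular and 3 horizontal basal cell genes were positive, 2 and 1 of them at an unadjusted p under 0.05, although the summed levels of both lists overlapped. Of 8 immature neuron genes 6 were negative, 1 of them (Gap43, a growth cone protein) at an unadjusted p under 0.05, and both ventral zone genes, Ncam2 and Nrp2, were negative at a p above that. The respiratory ciliated (3 of 4 positive), erythroid (4 of 5) and vomeronasal (3 of 3 tested) lists had no gene at that p. The 4 bone genes on a fixed list moved the other way, with 4326 to 6936 summed CPM in KO, 1532 to 3265 in neo and an unadjusted p under 0.05 for 4 of 4 (against 4.72% of all genes). The part of these lists in the class I values was not tested. The sample names hold a date-like number that WT and KO share and that differs in neo. The labels do not explain it, and what it marks cannot be told apart from the neo genotype.

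**Figure D3:**
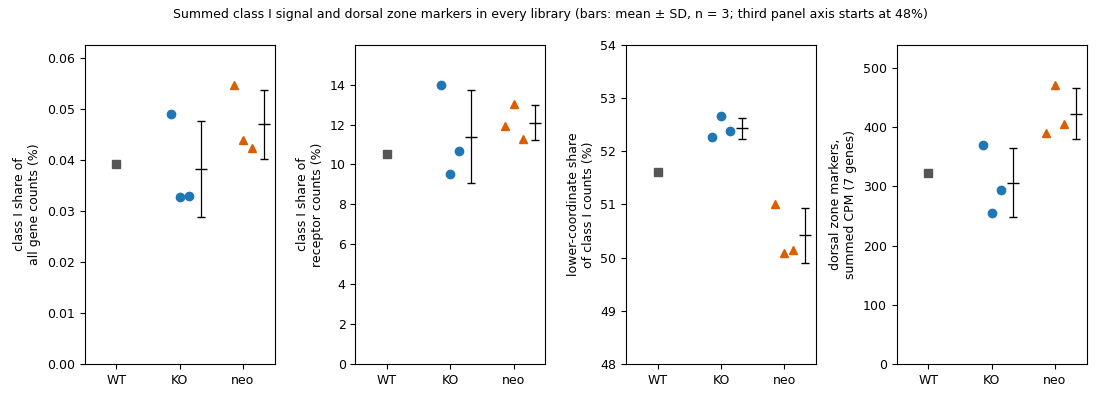
From left to right, the class I share of all gene counts (%), the class I share of receptor counts (%), the share of class I counts from the lower-coordinate side of the Hbb genes (%, axis from 48%) and the summed CPM of 7 dorsal zone markers (mostly Nqo1 and Acsm4), with 1 point per library and mean ± SD (n = 3) for KO and neo. KO replicate 1 lies near the neo libraries in the first panel, and KO and neo do not overlap in the last 2.

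Gene by gene, no member passed the threshold of an adjusted p under 0.05 in neo against KO (edgeR quasi-likelihood test with Benjamini-Hochberg adjustment over 17638 genes, of which 0.017% were called). Of the 128 records, 110 had enough counts to be tested. At an unadjusted p under 0.05, 6 members were higher in neo (5.45% of those tested, against 4.59% of all genes) and 0 were lower (against 4.72%). The direction was shared by many members. Of the 110, 94 had a positive fold change (85.5%, against 49.6% of all genes), with a median log2 fold change of 0.23, where the median of all genes was -0.0022. The other receptor genes had a median of 0.25 and 622 of 863 positive. These counts rested in part on KO replicate 1. Without it 29 members had an unadjusted p under 0.05 in the direction of neo (against 4.48% of all genes) and the median was 0.45, and without KO replicate 2 the count was 2 (against 2.9%) and the median 0.12. Without neo replicate 1, 78 of 111 members were positive and the median was 0.17, where the median of all genes was 0.0075.

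Olfr686 (ENSMUSG00000048425.3, chromosome 7, 105201858 to 105207485, minus strand) had the smallest p of the members. It had 113 counts in WT, 57, 70 and 60 in KO and 189, 120 and 105 in neo. Scaled by library, this was 5.20 CPM in WT, 3.52 ± 0.220 for KO and 7.40 ± 0.569 for neo (± SD of 3 libraries), so each neo library was above each KO library and WT lay between. The log2 fold change was 1.07 (SE 0.18, adjusted p = 0.271, edgeR), which missed the threshold. It passed in DESeq2 on the same counts (adjusted p = 0.00499, where 0.539% of genes were called), in edgeR without a count filter (adjusted p = 0.0458, 0.13% called) and in the authors' deposited table (log2 fold change of KO over neo -1.07, adjusted p = 0.0143, 0.429% called). Over 15 alternatives the log2 fold change stayed between 0.87 and 1.13, and adjusted p ranged from 0.00499 to 0.902. The best aligned segment between its coding sequence and that of its nearest receptor matched at 25.3% of the bases of the longer sequence. Bases outside that segment were not counted, so the value can understate their identity.

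Olfr64 and Olfr66 are adjacent on the upper side of the globin genes. Olfr64 had 58 counts in WT, 60, 50 and 44 in KO and 121, 120 and 66 in neo (log2 fold change 0.93, SE 0.26, adjusted p = 0.459, edgeR). Olfr66 had 33 counts in WT, 18, 12 and 20 in KO and 41, 33 and 23 in neo (log2 fold change 0.88, adjusted p = 0.498, edgeR). In CPM neither gene's KO and neo libraries overlapped. Olfr640 (log2 fold change 0.59, adjusted p = 0.496, edgeR) and Olfr691 (0.62, adjusted p = 0.517, edgeR) were also separate between the groups. In all, 6 members had each neo library above each KO library (5.45% of 110, against 7.59% of all genes), and they were the 5 named here and Olfr676, which was chosen after its values were seen.

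The member with the smallest p in the other direction was Olfr678, with 24 counts in WT, 19, 28 and 20 in KO and 23, 10 and 13 in neo (log2 fold change -0.61, SE 0.33, adjusted p = 0.599, edgeR). In CPM it was the 1 member with each neo library below each KO library (0.909% of 110, against 7.98% of all genes). Olfr553 (-0.36), Olfr605 (-0.20), Olfr550 (-0.15) and Olfr544 (-0.17) followed, with an adjusted p of 0.696 to 0.899 (edgeR). Olfr550 and Olfr544 had a positive sign on the log2(TPM + pseudocount) scale, and Olfr544 also without KO replicate 1.

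**Figure D4:**
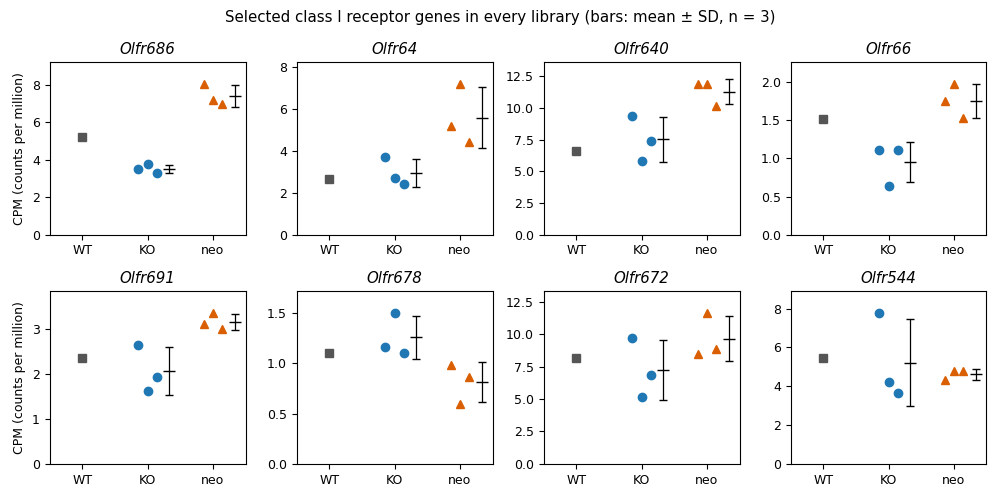
CPM (y axis, from 0) of 8 members in every library, by genotype, with mean ± SD (n = 3) for KO and neo. Olfr686, Olfr64, Olfr640, Olfr66 and Olfr691 have neo above KO with no overlap, Olfr678 has neo below KO, and Olfr672 and Olfr544 overlap.

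The share of class I counts from each side of the cluster separated the KO from the neo libraries. Members on the lower-coordinate side gave 51.6% of class I counts in WT, 52.3, 52.7 and 52.4% in KO and 51.0, 50.1 and 50.1% in neo. KO and neo did not overlap, at 52.4% ± 0.201 and 50.4% ± 0.520 (SD, n = 3 each), and the exact permutation p was 0.1, the smallest possible, so the design could not reach the threshold. The difference of 2.02 percentage points had the same sign in each of the 11 alternatives. For those that left out a library the sign was fixed in advance, because the groups did not overlap. The same counts, taken gene by gene, give a median log2 fold change of 0.17 over 63 tested members on the lower side, with 12 negative, and 0.29 over 47 on the upper side, with 4 negative, and 5 of the 6 members with an unadjusted p under 0.05 were on the upper side. In each of the 3 blocks cut at gaps of over 100 kb, the planned cut, the shares of the KO and neo libraries overlapped. KO and neo means were 65.7 and 65.1% for Olfr543 to Olfr649, and 23.3 and 24.2% for Olfr665 to Olfr692. The block between them, Olfr651 to Olfr664, is given below. By finer blocks, cut at gaps of over 50 kb as an alternative, the difference was uneven along the cluster. The shares of a library add up to its whole, so the blocks are not separate results. On the lower side, the 20 members from Olfr543 to Olfr564 gave 14.1% ± 0.232 of class I counts in KO and 12.2% ± 0.692 in neo (WT 14.2%), and the groups did not overlap. The next 21, Olfr566 to Olfr594, gave 13.8% ± 0.140 and 13.5% ± 0.753, and the 7 from Olfr596 to Olfr603 gave 5.71% ± 0.343 and 5.60% ± 0.0704. The 25 from Olfr605 to Olfr67 went the other way, at 18.8% ± 0.407 and 19.1% ± 0.979, and all 3 of these blocks overlapped between the groups. On the upper side, the 18 from Olfr66 to Olfr649, next to the globin genes, gave 13.3% ± 0.595 in KO and 14.7% ± 0.607 in neo (WT 12.6%), with no overlap. The 13 from Olfr651 to Olfr664 were lower in neo, at 10.999% ± 0.154 and 10.7% ± 0.222, and the 18 from Olfr665 to Olfr686 gave 18.1% ± 0.740 and 18.6% ± 1.01, both with overlap. The last 6, Olfr687 to Olfr692, gave 5.17% ± 0.147 and 5.61% ± 0.0933, with no overlap. The Spearman rho of the fold change between adjacent tested members was 0.08 over 109 pairs. The 2 adult globin genes between the sides had a log2 fold change of 0.01 (Hbb-bs, adjusted p = 0.993, edgeR) and 0.19 (Hbb-bt, adjusted p = 0.788, edgeR).

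**Figure D5:**
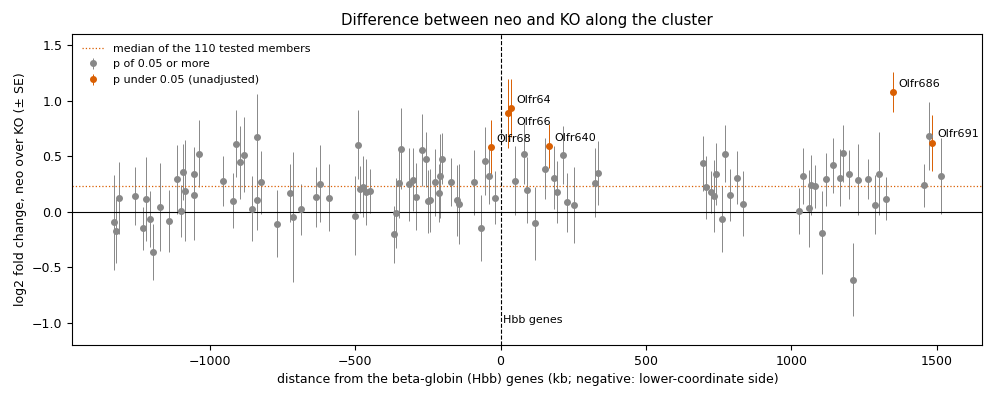
Log2 fold change of neo over KO ± SE (y axis) of the 110 tested members against distance in kb from the Hbb genes (x axis), with members at an unadjusted p under 0.05 in orange and the median of 0.23 as a dotted line. Most points lie above 0, and 5 of the 6 orange members are to the right of the Hbb genes.

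KO and neo were each compared with the 1 WT library to ask what either allele changes. They share that library, which has no replicate, so its spread was taken from the other groups. In KO against WT, 0 of 115 tested members were called by edgeR (0.00523% of 19123 genes were), with a median log2 fold change of 0.03 (-0.12 for the other receptors). The unadjusted p was under 0.05 for Olfr628, which was higher with 1 count in WT and 7, 7 and 8 in KO (1 of 115, against 0.288% of all genes), and for Olfr686, which was lower at -0.56 (1 of 115, against 0.439%). Olfr628 and, below, Olfr613 were chosen after their values were seen. In neo against WT, 0 of 115 were called (0.0105% of genes were), with a median of 0.25 (0.08 for the other receptors), and the unadjusted p was under 0.05 for Olfr613 (1.24), Olfr64 (1.06), Olfr640 (0.77) and Olfr598 (0.74), all higher (4 of 115, against 1.24% of all genes). Without KO replicate 1 the KO median was -0.21. DESeq2 called 0 members in both comparisons (0.00319 and 0.00957% of genes were), with 0 members at an unadjusted p under 0.05 in KO against WT and 4, all higher, in neo against WT (0.707% of all genes). WT and neo replicate 1 had 656 and 1276 CPM of Xist, the RNA of the inactive X chromosome, and the other 5 libraries at most 4.20. The sex of the animals and the loss of Amigo1 thus cannot be told apart in KO against WT. Sex was also uneven in neo against KO, where neo replicate 1 alone had high Xist. The part of sex in the class I values was not tested.

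Much of the spread between libraries was common to the cluster. For the median of 103 members with enough counts, the variance between libraries of 1 group was 3.74 times that of counting error when counts were scaled by all gene counts. It was 1.42 times when they were scaled by the class I counts of the library, and 2.19 for 763 other receptors scaled by their own counts. The other receptors were not also scaled by all gene counts, so whether this common spread was particular to the cluster was not tested. The widest spread within groups, among members averaging at least 20 counts, was that of Olfr608, Olfr596, Olfr592, Olfr670 and Olfr624. Olfr592, for example, had 182 counts in WT, 116, 97 and 83 in KO and 247, 82 and 67 in neo, where neo replicate 1 was far above the other 2.

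Genes that choose and serve these receptors showed no call in neo against KO. Of 19 factors of receptor choice and class, among them Bcl11b, Lhx2, Ldb1 and Kdm1a, 0 passed adjustment, 10 had a positive fold change (against 49.6% of all genes), and 1, the O/E factor Ebf4, was higher at an unadjusted p under 0.05 (against 4.59% of all genes; log2 fold change 0.39, adjusted p = 0.502, edgeR). Bcl11b itself stood at 133 CPM in WT, 106, 129 and 109 in KO and 139, 92.3 and 102 in neo (log2 fold change -0.04, adjusted p = 0.960, edgeR). Of 20 genes of receptor signalling and transport, 0 passed, 19 had a positive fold change (median 0.16) and 2 were higher at an unadjusted p under 0.05, read against the same 49.6 and 4.59% of all genes. These, both also on the mature neuron list, were Ric8b, a chaperone of the olfactory G protein (0.29, adjusted p = 0.471, edgeR), and Slc24a4, an ion exchanger of olfactory cilia (0.37, adjusted p = 0.502, edgeR). Many others of the 20 genes, such as Omp, Cnga2 and Gnal, are on that list too, so the 2 lists are not separate results.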

How the data were processed

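Poly(A) RNA of 7 olfactory epithelium libraries was analysed, with groups and replicate numbers from the titles. The authors deposited whole-number counts per gene on GRCm38 (mm10), with Trimmomatic 0.35 and STAR 2.5.1b listed in the submitters' processing notes. The deposited TPM and FPKM values per gene and transcript came from RSEM, per the file headers. The authors' deposited comparison held log2 fold changes, p-values and a normalised signal (gene counts divided by 1 factor per library) from DESeq2 1.18.1, per the labels. That signal was used to check the columns alone.

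Counts were tested with edgeR 4.0.16 (TMM, filterByExpr with a minimum count of 10 and total of 15, robust quasi-likelihood fit, Benjamini-Hochberg adjustment over all genes at 0.05, two-sided). Neo against KO used those 6 libraries and comparisons with WT all 7. Alternatives were RLE factors, TMM without receptor genes, other count filters, DESeq2 1.42.0, limma 3.58.1 on log2 TPM with a pseudocount of 0.1 or 1 (genes with a mean TPM from 0.5), a replicate block and leaving out each library. The edgeR and permutation code was tested on simulated data. Coding sequences from GENCODE vM21 were compared with blastn 2.17.0. Identity is the matching bases of the best aligned segment over the longer sequence, so it can understate the match of pairs aligned in part. It replaced the protein identity first planned for the closest pair, since protein sequences were not used here. Of the table's identifiers, 45737 matched vM21, all at the same coordinates.

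The rule for named members takes the 10 highest in TPM, the 5 with the smallest p in each direction in neo against KO, the end members and those beside the Hbb genes, 8 with known ligands or sites, the 5 with the widest spread, those with 0 counts and the closest pairs. The members and lists were chosen with earlier results of these data known. Whether every library is from a separate animal is not in the labels, so the spread behind a p-value may be technical. Libraries differed by more than counting noise in every pair, with a chi-square per degree of freedom of 9.58 or more. Intervals and limits of a 0 count cover counting error alone.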

Additional observations from a re-analysis of the deposited data

How the results depend on the processing

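Counting error limits single members, most of which have under 100 counts per library, and 3 libraries a group limit every test. In neo against KO, 0 members were called in the main test and in 13 of 15 alternatives, and 1 (Olfr686) was called without a count filter and by DESeq2. The log2 fold change of Olfr686 kept its sign throughout. The ratio of neo to KO ranged, when each library was left out, from 0.981 to 1.197 for the class I share of receptor counts, from 0.960 to 1.16 for class I counts per mature marker count, and from 1.13 to 1.43 for the share of gene counts, and the first 2 turned below 1 in 1 and 3 of these fits. The median class I change in KO against WT turned to -0.10 and -0.056 on log2(TPM + 0.1) and log2(TPM + 1), where the median of all genes was -0.092 and -0.077, and leaving out each library gave -0.21 to 0.18. Gaps of over 50 kb gave 8 blocks in place of 3. The cause of these differences was not tested.

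Among the 31 named members, changes near 0 turned sign. On log2(TPM + 0.1) and log2(TPM + 1) they were 0.050 and 0.043 for Olfr550, 0.061 and 0.032 for Olfr544, 0.34 and 0.14 for Olfr543, and -0.13 and -0.066 for Olfr592. Leaving out each library gave -0.42 to 0.34 for Olfr543, -0.37 to 0.23 for Olfr544, -0.046 to 0.47 for Olfr545, -0.14 to 0.13 for Olfr558, -0.26 to 0.47 for Olfr592, -0.26 to 0.31 for Olfr596, -0.18 to 0.44 for Olfr624, -0.10 to 0.24 for Olfr665, -0.00069 to 0.43 for Olfr67 and -0.45 to 0.26 for Olfr670. Replicate numbers did not pair the libraries (correlations of same-numbered deviations -0.14, -0.05 and 0.19). With the replicate block 0 members were called, 6 had an unadjusted p under 0.05 (edgeR), the median change was 0.25 and Olfr558 turned to -0.0064. The 4 summed results had a p of 0.25 to 0.75 by exact sign flips of the same-numbered pairs. The smallest p that this sign-flip test can give is 0.25. The alternative without members over 90% identical to another in coding sequence was chosen after seeing the data, in place of one on protein identity that was not run, and gave ratios of 1.22, 1.06, 1.02 and 0.949.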
